A study of Mus musculus with 21 samples.

Results

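Double-positive thymocytes that carried an HDAC7 deltaP transgene were compared with double-positive thymocytes without it, both taken from OT-2 T cell receptor transgenic mice that had received agonist peptide. The members are 6 of the 21 arrays of the series, chosen by their titles: 3 labelled OT-2 with HDAC7 deltaP and peptide, and 3 labelled OT-2 with peptide. Per the labels, all 6 arrays held RNA of flow-sorted CD4 CD8 double-positive thymocytes from C57 Bl/6 mice aged 3 to 6 weeks. The OT-2 agonist peptide was injected into the peritoneum 3 hours before harvest in both groups, so the transgenic receptor and the peptide are shared and the deltaP transgene is the labelled difference. The genotype field of the deltaP arrays repeats only the OT-2 transgene, and the deltaP transgene stands in their titles and source names. Which promoter drives the transgene, and from how many founder lines the mice came, is not stated by the labels. The same series holds 3 arrays of untreated OT-2 mice, 3 of mice lacking HDAC7, 3 of mice with an HDAC7-VP16 transgene and 6 of wild-type mice. These are used below for levels, lists and fits set beside the deltaP comparison, and they enter the quantile normalization.

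HDAC7 is a class IIa histone deacetylase that is abundant in double-positive thymocytes, where it is recruited to genes by MEF2 transcription factors and represses them while it is in the nucleus. Signalling from the T cell receptor leads to phosphorylation of conserved serines of HDAC7 and to its export from the nucleus, after which targets such as Nr4a1 can be transcribed. The deltaP form is known as a mutant that lacks these phosphorylation sites and stays nuclear. An agonist for the receptor at this stage triggers negative selection, in which strongly signalling thymocytes turn on NR4A nuclear receptors and the BH3-only protein BIM and die.

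In the deltaP mice the peptide-injected thymocytes had lower signals of Nr4a1 (10.8-fold), Nr4a3 (8.10-fold), Gadd45b (5.44-fold) and Bcl2l11 (2.33-fold), and of 9 of the 16 named NF-kB genes and 12 of the 26 named activation genes, than thymocytes of peptide-injected OT-2 mice. No member of those lists of NF-kB and activation genes rose. Of the 206 probe sets that the authors' deposited knockout table gives as lower without HDAC7, 32 rose with deltaP, among them Slc28a2b, Smoc1, Jup and P3h4. Of the 199 that it gives as higher, 61 fell with deltaP, among them Btla, Chl1, P2rx7 and Il17rb. Levels below are log2 RMA signals after quantile normalization over all 21 arrays, and a change is the mean of the 3 deltaP arrays minus the mean of the 3 peptide-injected OT-2 arrays with the standard error (SE) of the limma fit. A gene rose or fell when its Benjamini-Hochberg adjusted p over 28923 probe sets was under 0.05. Of all probe sets 1.51% rose and 1.39% fell. Members of the lists can only be named probe sets, of which 67 rose and 143 fell of 2111 (9.95% together). That higher share is the nearer background for the counts of members.

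The promoters of 4 genes that fell are shown because they are upstream regions of NR4A and NF-kB genes described below, chosen as examples after values were seen. Each runs from 250 bases before to 50 bases after a transcription start in RefSeq on GRCm38.p6, 5′ to 3′ on the strand of the gene. Capitals mark TGACG, the short core of a cAMP response element, or its reverse complement in Nr4a1 (chr15:101266596-101266895, plus strand) and Nr4a3 (chr4:48045055-48045354, plus strand). In Nfkb2 (chr19:46304487-46304786, plus strand) and Nfkbid (chr7:30422156-30422455, plus strand) capitals mark GGGANNNNCC, a kappa B site, or its reverse complement; these genes have 3 windows each in the table, and the one with the most matches is shown.
Nr4a1: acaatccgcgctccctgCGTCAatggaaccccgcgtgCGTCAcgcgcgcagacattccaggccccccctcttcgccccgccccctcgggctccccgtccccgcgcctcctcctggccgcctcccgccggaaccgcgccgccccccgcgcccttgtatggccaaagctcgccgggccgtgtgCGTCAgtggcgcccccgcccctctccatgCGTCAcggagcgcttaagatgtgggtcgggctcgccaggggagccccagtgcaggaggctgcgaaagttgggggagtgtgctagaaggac
Nr4a3: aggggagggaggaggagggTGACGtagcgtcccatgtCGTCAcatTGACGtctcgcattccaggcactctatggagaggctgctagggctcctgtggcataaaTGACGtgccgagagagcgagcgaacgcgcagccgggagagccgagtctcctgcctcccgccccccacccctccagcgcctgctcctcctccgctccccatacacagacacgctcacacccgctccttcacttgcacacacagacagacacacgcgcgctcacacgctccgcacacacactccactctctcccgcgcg
Nfkb2: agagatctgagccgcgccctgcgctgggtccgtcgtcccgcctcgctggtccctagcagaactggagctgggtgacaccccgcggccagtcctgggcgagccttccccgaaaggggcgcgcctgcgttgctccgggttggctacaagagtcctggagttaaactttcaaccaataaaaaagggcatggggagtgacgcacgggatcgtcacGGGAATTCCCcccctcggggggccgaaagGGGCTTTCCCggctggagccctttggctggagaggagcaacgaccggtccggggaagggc
Nfkbid: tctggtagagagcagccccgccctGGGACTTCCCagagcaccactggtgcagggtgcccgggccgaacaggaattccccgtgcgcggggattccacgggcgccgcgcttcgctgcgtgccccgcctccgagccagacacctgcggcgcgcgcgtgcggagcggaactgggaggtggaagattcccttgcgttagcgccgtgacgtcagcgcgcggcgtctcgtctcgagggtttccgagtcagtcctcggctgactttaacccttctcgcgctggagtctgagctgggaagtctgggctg
The Nr4a1 and Nr4a3 windows each held 4 matches of TGACG, the Nfkb2 window held 2 of GGGANNNNCC and the Nfkbid window 1. Of all 32851 promoter windows of the table, 20.8% held TGACG and 20.7% held GGGANNNNCC on either strand; of its 27025 genes, some with several windows, 23% and 22.9% held them in any window. Among genes that fell and have a window, 32 of 103 held TGACG (31.1%) and 46 held GGGANNNNCC (44.7%). Among genes that rose, the counts were 13 of 51 (25.5%) and 20 of 51 (39.2%), and among all 1597 named genes with a window 31.3% and 31.5%. The MEF2 consensus was in 5 of the 103 genes that fell (4.85%), in 2 of the 51 that rose (3.92%), in 2.5% of all named genes with a window in 3.19% of all promoter windows and in 3.7% of all genes of the table, and in 0 of the 4 printed here. A match is a run of letters and says nothing of binding. Sequence further than 250 bases before the start was not searched, so a count of 0 does not speak of sites there.

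The arrays were first checked for labels and scale. The Hdac7 probe set read 10.28, 10.47 and 10.68 in the deltaP arrays, against 10.65, 10.46 and 11.10 in the peptide-injected OT-2 arrays. The groups overlapped, and the change of -0.26 ± 0.17 (95% interval -0.65 to 0.13, adjusted p = 0.422) did not pass. Where the probes of this set lie in the gene, and whether the transgene's transcript holds them, is not known from the files, so the set does not check the transgene. In limma fits the set was higher with HDAC7-VP16 than in wild-type arrays 4 to 6 (0.55, adjusted p = 0.0259). Its change in the knockout against wild-type arrays 1 to 3 was -0.34 (adjusted p = 0.739). Wild-type arrays 4 to 6 minus 1 to 3 differed by -0.96 at this set. Hdac5, a deacetylase of the same class, read 7.81, 7.96 and 7.83 in the deltaP arrays, against 8.50, 8.42 and 8.46 in the peptide-injected OT-2 arrays. The groups did not overlap, Hdac5 fell by 0.60 (SE 0.08, adjusted p = 0.0168), and 2 of the 6 fits without 1 array kept the call; in the knockout Hdac5 was higher by 1.31. Mef2a and Mef2d, the named MEF2 genes, had changes of -0.01 and 0.54 and did not pass.

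The deposited values of the groups come from different normalization blocks: the deltaP arrays have medians from 6.02 to 6.07 and are written with 2 decimals, and the peptide-injected OT-2 arrays have medians from 6.23 to 6.26 and 3 decimals. Block and group cannot be told apart. Wild-type arrays 4 to 6 and 1 to 3, which are written with 6 and 3 decimals and so also lie in different blocks, share a genotype label; differences between them hold those of block and of sample together. Between those wild-type sets 10581 probe sets passed (36.6%), against 838 in the deltaP comparison (2.90%). The median absolute difference was 0.129 in the deltaP comparison and 0.248 between the wild-type sets, and 232 probe sets differed by over 1 in the deltaP comparison, against 734 between the wild-type sets.

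**Figure D1:**
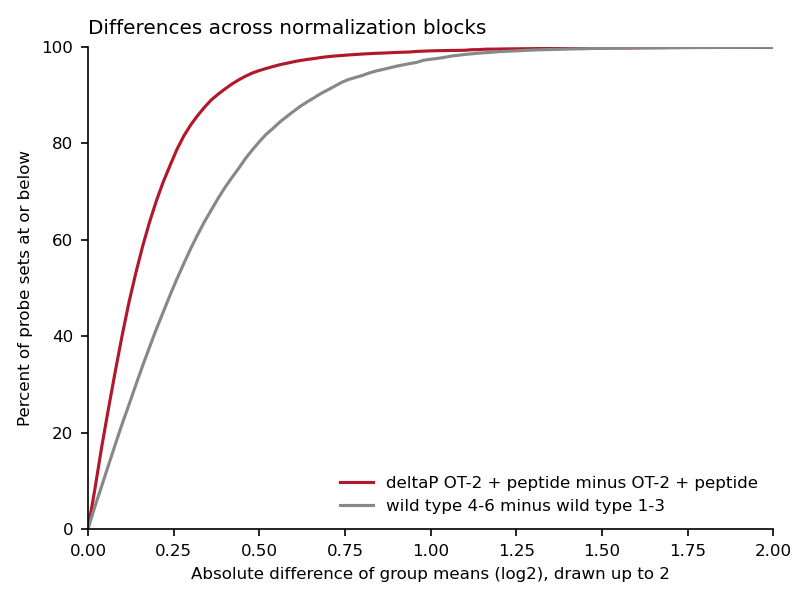
The plot of absolute differences across normalization blocks gives, on the y axis, the percent of the 28923 probe sets at or below the absolute difference of group means on the x axis (log2). The red curve is deltaP minus peptide-injected OT-2 (3 arrays each) and the grey curve is wild-type arrays 4 to 6 minus 1 to 3; the red curve reaches its 95th percentile at 0.495 and the grey curve at 0.839.

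Of the 838 probe sets that passed, 437 rose (1.51%) and 401 fell (1.39%); on the values as deposited 613 rose and 3736 fell, and on arrays centred on their medians 3636 rose and 1016 fell. The median of all changes was 0.01 after quantile normalization, -0.10 as deposited and 0.09 centred, and 624 probe sets (2.16%) passed on all 3 scales in the same direction, of which 263 rose and 361 fell. The groups did not overlap at 7997 probe sets (27.6%). Names come only from the authors' deposited tables of changed genes, which cover 2111 of the probe sets tested: 67 named probe sets rose and 143 fell, together 9.95%, and 187 of the 210 passed on all 3 scales. Since the authors listed these genes for changing in other comparisons of the series, the higher share is not independent evidence. At 192 of the 210 the change with deltaP was larger in size than the difference between the wild-type sets. The authors' comparison of peptide-injected with untreated OT-2 holds the same 3 peptide-injected OT-2 arrays as here, so the spread of those arrays enters both. Of the 434 named probe sets listed for that comparison, 61 fell and 24 rose (19.6% together). Of the 1677 not listed for it, 82 fell and 43 rose (7.45% together). The pathway lists were not split in this way. Without any 1 array the number of probe sets that passed was lower, from 60 without deltaP array 3 and 90 without deltaP array 2 to 498 without peptide-injected OT-2 array 2, and 33 of the 210 named calls held in all 6 such fits. Among the 58 genes named by rule that passed, deltaP array 1 was the deltaP array nearest to the peptide-injected OT-2 mean at 42.

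The double-positive label was checked against its markers, of which 5 of 9 are named in the files (Cd4, Cd8b1, Rag1, Rag2 and Ptcra). Their mean level ran from 10.43 to 10.76 in the deltaP arrays and from 10.36 to 10.45 in the peptide-injected OT-2 arrays, far above the median of all probe sets at 6.14, and 0 of the 5 passed. Of the markers of other cells, the 6 named double-negative markers averaged 7.43 to 7.79 in the deltaP arrays, against 7.88 to 8.60 in the peptide-injected OT-2 arrays. The 2 named B cell markers (Cd79b and Blk) averaged 7.25 to 7.38 in the deltaP arrays, against 7.51 to 8.26 in the peptide-injected OT-2 arrays. The 3 named macrophage markers (Lyz1, Itgam and Lyn) averaged 6.14 to 6.32 in the deltaP arrays, against 6.34 to 6.70 in the peptide-injected OT-2 arrays. Gzma, the 1 named marker of gamma delta T and NK cells, read 7.77 to 8.12 in the deltaP arrays and 8.05 to 9.17 in the peptide-injected OT-2 arrays. Irf8, the 1 named dendritic cell marker and also an interferon-responsive gene of lymphocytes, fell by 1.34 (SE 0.24, adjusted p = 0.0338). The 4 named markers of mature CD4 or CD8 cells averaged 8.04 to 8.15 in the deltaP arrays and 7.98 to 8.76 in the peptide-injected OT-2 arrays. No marker of stroma or erythroid cells is named, and the part of other cells in the results below was not tested; in sorted samples a loss of cells of one kind and less RNA per cell cannot be told apart.

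The NR4A genes code for orphan nuclear receptors that antigen receptor signals induce within hours. Nr4a1, which codes for NUR77, read 9.16, 7.93 and 8.36 in the deltaP arrays, against 11.82, 11.71 and 12.24 in the peptide-injected OT-2 arrays. The highest deltaP array lay more than 2 log2 units below the lowest peptide-injected OT-2 array, and Nr4a1 had the largest fall of all named genes, by 3.44 (SE 0.28, adjusted p = 0.00443), or 10.8-fold. Its mean of 8.49 in deltaP was close to the 8.48 of untreated OT-2 arrays, and the call held in all 6 fits without 1 array. The untreated OT-2 arrays form a further normalization block, so that levels set against theirs rest on the quantile normalization. Nr4a3, the related receptor NOR1, read 6.92, 5.93 and 6.54 in the deltaP arrays, against 8.95, 9.23 and 10.26 in the peptide-injected OT-2 arrays. It fell 8.10-fold (change -3.02 ± 0.35, adjusted p = 0.00888) with no overlap, and its deltaP mean of 6.46 lay above the untreated OT-2 mean of 5.42. Without deltaP array 3 the change was -3.06 with an adjusted p of 0.0578.

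Among the pro-apoptotic genes 3 of 9 named members fell and 0 rose, with a list median of -0.03 (0.14 on arrays centred on their medians), against 0.01 over all probe sets. Gadd45b, a stress sensor that acts on MAP kinase signalling, read 8.33, 7.21 and 7.49 in the deltaP arrays, against 9.82, 10.22 and 10.33 in the peptide-injected OT-2 arrays. The groups were separated by more than 1 log2 unit, and Gadd45b fell 5.44-fold (change -2.44 ± 0.27, adjusted p = 0.00744). Bcl2l11, which codes for BIM, a BH3-only protein of thymocyte deletion, read 9.85, 9.37 and 9.30 in the deltaP arrays, against 10.82, 10.64 and 10.72 in the peptide-injected OT-2 arrays. It fell 2.33-fold (change -1.22 ± 0.15, adjusted p = 0.0109), and its deltaP mean lay between that of the peptide-injected OT-2 arrays and the untreated OT-2 mean of 8.72. Bbc3, which codes for the BH3-only protein PUMA, fell by 0.72 (SE 0.10, adjusted p = 0.0151). The other 6 members did not pass, among them Siva1 (-0.09) and Bmf, a further BH3-only gene (0.02). Without deltaP array 3 the calls of Gadd45b (adjusted p = 0.0558), Bcl2l11 (0.0578) and Bbc3 (0.0718) were lost at changes of -2.35, -1.11 and -0.65; Bcl2l11 (0.0547) and Bbc3 (0.061) also lost theirs without deltaP array 2.

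Of the survival genes 3 of 8 named members fell and 0 rose, while 4 of the 8 had changes above 0; the list median was -0.29. On arrays centred on their medians 2 fell, 1 rose and the median was -0.03, and without deltaP array 2 or 3 none passed. Birc3, which codes for the inhibitor of apoptosis cIAP2 and is an NF-kB target, read 8.35, 8.39 and 8.29 in the deltaP arrays, against 9.00, 8.92 and 9.00 in the peptide-injected OT-2 arrays, and fell by 0.63 (SE 0.08, adjusted p = 0.0126). Bcl2, the anti-apoptotic founder of its family, fell by 0.65 (adjusted p = 0.0339), and Pim1, a survival kinase, fell by 0.59 (adjusted p = 0.0396). Pim1 did not pass on all 3 scales, Bcl2 and Pim1 passed in 1 of 6 fits without 1 array, and Birc3 lost its call without deltaP array 2 (adjusted p = 0.052) or 3 (0.0717). Bcl2l1 (BCL-XL, 0.19) and Cflar (c-FLIP, 0.02) did not pass.

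**Figure D2:**
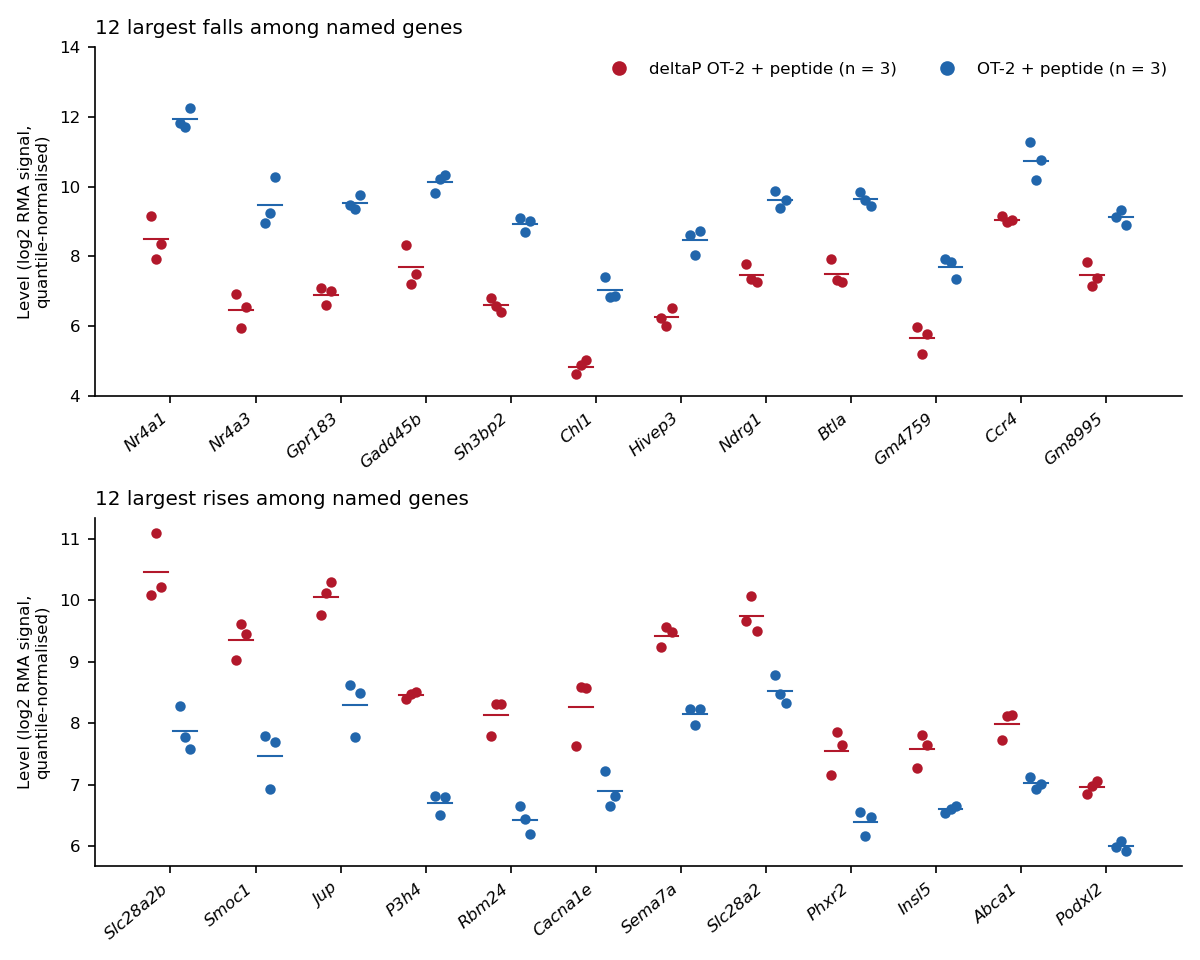
The plot of the largest changes shows the level of each array (log2 RMA signal, quantile-normalised) for the 12 genes with the largest falls (top) and the 12 with the largest rises (bottom) under the naming rule. Red points to the left are the 3 deltaP arrays, blue points to the right the 3 peptide-injected OT-2 arrays, and lines are means. The rule took only genes whose groups do not overlap. The gap is widest for Nr4a1 among the falls and for Slc28a2b among the rises.

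Of the immediate-early and activation genes of the T cell receptor, 12 of 26 named members fell and 0 rose, and all 26 had changes below 0, with a median of -0.83; on arrays centred on their medians 20 of the 26 did, and 13 fell. Sh3bp2, an adaptor of antigen receptor signalling, read 6.79, 6.59 and 6.42 in the deltaP arrays, against 9.10, 8.70 and 9.02 in the peptide-injected OT-2 arrays. Its fall of 2.34 (SE 0.14, adjusted p = 0.00103), 5.06-fold, took it below the untreated OT-2 mean of 7.88. Ndrg1, a gene linked to T cell anergy, read 7.78, 7.35 and 7.27 in the deltaP arrays, against 9.88, 9.38 and 9.60 in the peptide-injected OT-2 arrays, a fall of 2.15 (SE 0.17, adjusted p = 0.00342) that likewise ended below the untreated OT-2 mean of 8.53. Ptger4, a prostaglandin E2 receptor, fell by 1.22 (SE 0.10, adjusted p = 0.00342). Nr4a1, Sh3bp2, Ndrg1, Ptger4 and Trib1 (-1.29), a pseudokinase, passed in all 6 fits without 1 array.

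The remaining members of the list that fell are named after their values were seen. Cd69, the early activation antigen that retains cells in the thymus, fell by 1.46 (SE 0.19), Irf4, a transcription factor graded by receptor signal strength, by 1.63 (SE 0.29), and Batf, its AP-1 partner, by 1.31 (SE 0.22). Myc, the growth regulator, fell by 1.46 (SE 0.30), Fosl2, an AP-1 subunit, by 1.05 (SE 0.22), and Egr2, a zinc finger factor of receptor signalling, by 0.87 (SE 0.13). Their adjusted p-values ran from 0.0134 (Cd69) to 0.0469 (Fosl2). Egr1, a relative of Egr2, had a change of -0.28 and did not pass (adjusted p = 0.248), nor did Fos (-0.79), Junb (-0.39), Il2ra (-0.45) or Tagap (-1.48). The count of 12 fell to 5 without deltaP array 3 and to 6 without deltaP array 2, while the list median stayed between -0.95 and -0.74 in the 6 fits.

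NF-kB genes formed the list with the largest share that fell, 9 of 16 named members (56.2%), with 0 that rose. Beside this, 1.39% of all probe sets, 143 of the 2111 named and 61 of the 434 named in the deposited peptide table fell. The 434 were not split into those raised and those lowered by peptide, so their share is not a like background. Peptide-injected minus untreated OT-2 was 1.68 for Nfkb2, 0.73 for Tnip2, 1.41 for Icam1 and 1.21 for Tnfaip3. The same peptide-injected OT-2 arrays enter those values and the falls with deltaP, so the 2 are not independent. All 16 changes were below 0 (15 as deposited and 15 centred), with a median of -0.83. Nfkb2, which codes for p100 and p52, read 8.52, 8.11 and 8.31 in the deltaP arrays, against 9.75, 9.48 and 10.07 in the peptide-injected OT-2 arrays. The groups did not overlap, the fall was 2.74-fold (change -1.45 ± 0.16, adjusted p = 0.00809), and the deltaP mean of 8.31 lay near the 8.09 of untreated OT-2. Tnip2, an adaptor that binds the NF-kB regulator A20, read 6.30, 6.52 and 6.27 in the deltaP arrays, against 7.87, 7.95 and 7.54 in the peptide-injected OT-2 arrays, a fall of 1.42 (SE 0.13, adjusted p = 0.00498). Icam1, an adhesion molecule and NF-kB target, fell by 1.00 (SE 0.10, adjusted p = 0.00571). Tnfaip3, which codes for A20 itself, fell by 0.95 (SE 0.11, adjusted p = 0.00888).

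The other subunits among the named members, given after their values were seen, fell as well. Rel fell by 1.38 (SE 0.23), Nfkb1, which codes for p105 and p50, by 1.30 (SE 0.19), and Relb by 1.25 (SE 0.16). The subunit gene Rela is not among the named members. The nuclear inhibitor genes Nfkbid and Nfkbiz fell by 1.29 (SE 0.18) and 0.60 (SE 0.10). The cytoplasmic inhibitor gene Nfkbia had a change of -0.27, Nfkbie -0.33 and Bcl3 -0.50, and these did not pass. Malt1, the paracaspase that links the T cell receptor to NF-kB, read 7.98, 7.96 and 7.88 in the deltaP arrays, against 8.93, 8.65 and 9.13 in the peptide-injected OT-2 arrays. It fell by 0.97 (SE 0.12, adjusted p = 0.0131), and with Ppp3ca, the catalytic subunit of calcineurin (-0.61 ± 0.10, adjusted p = 0.0264), made 2 of 9 named genes of the receptor's signalling machinery that fell, while 0 rose; on arrays centred on their medians 2 fell and 4 rose. Without deltaP array 3 the NF-kB count was 2 and without deltaP array 2 it was 3, at list medians of -0.82 and -0.83; in the other 4 fits it was 8 or 9. Malt1 missed the threshold without deltaP array 2 (adjusted p = 0.058) or 3 (0.0723), and Ppp3ca passed in 1 of 6 fits without 1 array, so that the count of the signalling machinery was 0 without either of these deltaP arrays.

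**Figure D3:**
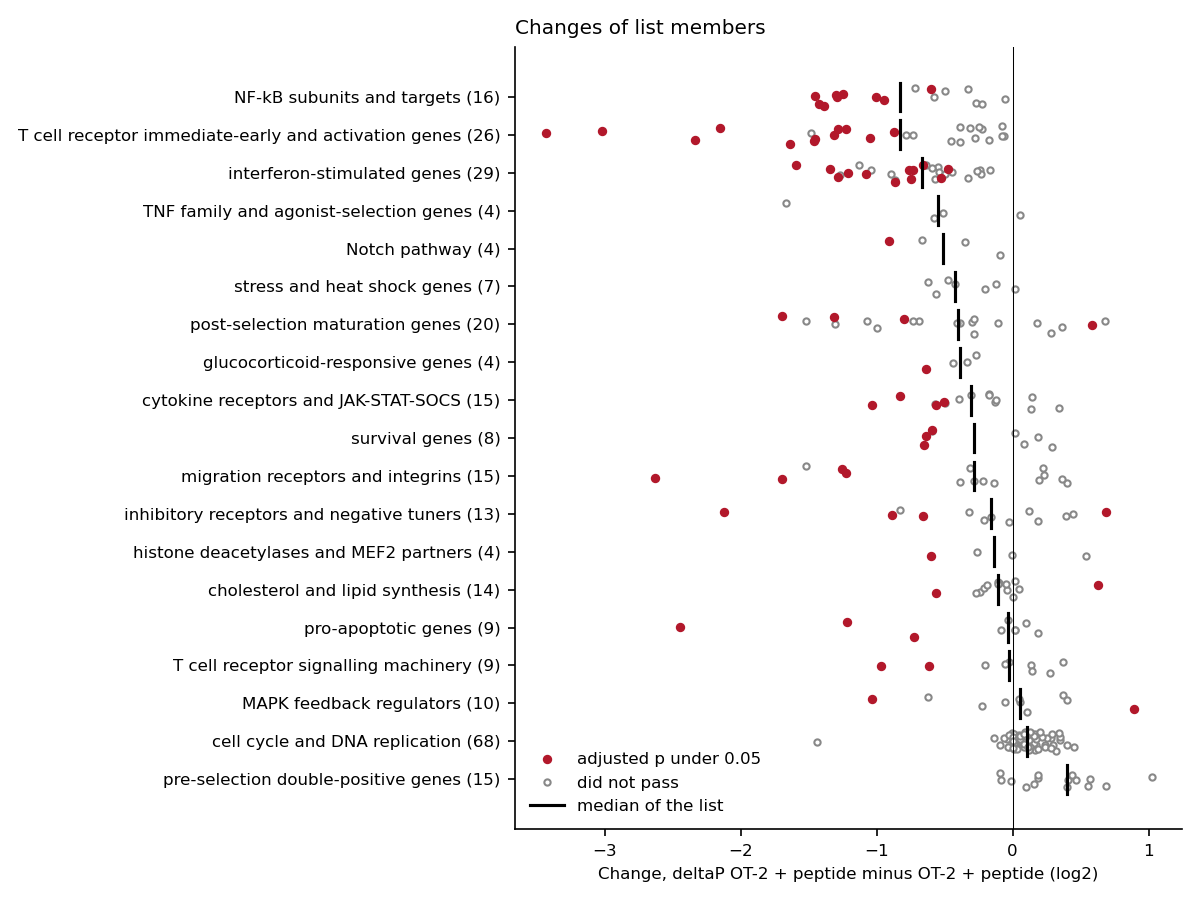
The plot of list changes gives, for each of the 19 pathway lists (number of named members in brackets), the change of each member on the x axis (log2, deltaP minus peptide-injected OT-2). Filled red points passed an adjusted p of 0.05, open grey points did not, and black bars are list medians; the NF-kB and activation lists lie wholly below 0 with medians of -0.83, and none of the 68 cell cycle genes has a red point, with Ccnd2 at -1.44 the lowest.

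Within the feedback regulators of MAP kinase signalling the members moved apart, 1 of 10 falling and 1 rising (3 rising on arrays centred on their medians). Dusp5, a nuclear phosphatase for ERK, read 7.99, 8.14 and 7.97 in the deltaP arrays, against 8.95, 8.89 and 9.38 in the peptide-injected OT-2 arrays, and fell by 1.04 (SE 0.14, adjusted p = 0.0138). Dusp6, the cytoplasmic ERK phosphatase, read 10.19, 9.94 and 9.85 in the deltaP arrays, against 9.38, 8.70 and 9.22 in the peptide-injected OT-2 arrays, and rose by 0.89 (SE 0.17, adjusted p = 0.0399). The Dusp6 call held in 1 of 6 fits without 1 array, and that of Dusp5 in 4, being lost without deltaP array 2 (adjusted p = 0.0534) or 3 (0.0772). Wild-type arrays 4 to 6 minus 1 to 3, of different blocks, differed by 0.50 at Dusp6 and 0.42 at Dusp5. Dusp2 (-0.62), Dusp4 (0.37) and Spry1 (0.06), a receptor signalling inhibitor, did not pass.

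Of the TNF family and agonist-selection genes 4 are named and 0 passed. Tnfrsf9, the costimulatory receptor 4-1BB, read 6.44, 6.33 and 6.51 in the deltaP arrays, against 7.49, 7.53 and 9.26 in the peptide-injected OT-2 arrays. The groups did not overlap, but peptide-injected OT-2 array 3 stood far above the other two, and the change of -1.67 ± 0.41 had an adjusted p of 0.0721. Tnfrsf4, which codes for OX40, had a change of -0.58 (95% interval -1.02 to -0.14, adjusted p = 0.136).

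Of the interferon-stimulated genes 12 of 29 named members fell, 0 rose, all 29 changes were below 0 (27 on arrays centred on their medians) and the median was -0.66. Xaf1, a pro-apoptotic interferon target, read 6.54, 6.19 and 6.37 in the deltaP arrays, against 7.24, 7.27 and 7.82 in the peptide-injected OT-2 arrays, and fell by 1.08 (SE 0.17, adjusted p = 0.0212). Irf9, the DNA-binding part of the complex downstream of type I interferon, fell by 0.86 (SE 0.14, adjusted p = 0.0229), Parp14 by 0.76 (SE 0.10, adjusted p = 0.0167) and Isg20, an exonuclease against viral RNA, by 0.75 (SE 0.13, adjusted p = 0.0288). Wild-type arrays 4 to 6 minus 1 to 3 differed by 0.51 at Isg20 and by -0.39 at Parp14. Irf1 and Usp18, which restrains interferon signalling, were named after their values were seen and fell by 1.21 (SE 0.21) and 1.60 (SE 0.32). Irf7 (-1.04) and Isg15 (-0.24) did not pass. The count of 12 went to 0 without deltaP array 2 or without deltaP array 3, at list medians of -0.61 and -0.69, and was from 3 to 7 in the other fits. On the values as deposited 19 of the 29 fell. In untreated OT-2 arrays the mean levels of Xaf1, Irf9, Parp14 and Isg20 were 6.94, 8.57, 8.57 and 8.07, above the deltaP means at each of the 4.

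Inhibitory receptors and tuners of the T cell receptor had 3 of 13 named members that fell and 1 that rose, with a median of -0.16; on arrays centred on their medians 3 fell, 3 rose and the median was 0.06. Btla, an inhibitory receptor of lymphocytes, read 7.93, 7.32 and 7.26 in the deltaP arrays, against 9.83, 9.63 and 9.43 in the peptide-injected OT-2 arrays. It fell 4.37-fold (change -2.13 ± 0.18, adjusted p = 0.00498), to below the untreated OT-2 mean of 8.40 and above the means of wild-type arrays 1 to 3 (6.22) and 4 to 6 (6.58). Cd5, a negative regulator whose level tracks receptor signal strength, read 11.03, 11.19 and 11.03 in the deltaP arrays, against 12.29, 11.61 and 12.01 in the peptide-injected OT-2 arrays. It fell by 0.89 (SE 0.16, adjusted p = 0.0335), and Cd6, a related receptor, by 0.66 (SE 0.12, adjusted p = 0.036). Lag3, a coinhibitory receptor, rose by 0.69 (SE 0.13, adjusted p = 0.0401). Cd5, Cd6 and Lag3 each passed in 1 of 6 fits without 1 array and Cd6 did not pass on all 3 scales, whereas Btla passed in all of these. Pdcd1 (PD-1, -0.32) and Ctla4 (-0.16) did not pass.

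Of the genes of maturation after positive selection, 3 of 20 named members fell, 1 rose and the median was -0.40. On arrays centred on their medians 4 fell, 5 rose and the median was -0.30, and as deposited 7 fell and 2 rose. Gata3, the transcription factor of the CD4 lineage, read 9.39, 9.47 and 9.47 in the deltaP arrays, against 10.91, 10.41 and 10.96 in the peptide-injected OT-2 arrays. All 3 deltaP arrays lay within 0.1 of each other and below every peptide-injected OT-2 array, a fall of 1.32 (SE 0.14, adjusted p = 0.00744). Ccr4, a chemokine receptor that draws positively selected thymocytes to the medulla, fell by 1.69 (SE 0.23, adjusted p = 0.0167), with 9.14, 8.97 and 9.04 in the deltaP arrays, against 11.29, 10.20 and 10.75 in the peptide-injected OT-2 arrays. Ms4a4b, a membrane protein of mature T cells, fell by 0.80 (SE 0.10, adjusted p = 0.0131), but at this probe set the wild-type sets of different blocks differed by 1.26. Slamf6, a receptor of cell contacts between thymocytes, rose by 0.59 (SE 0.11, adjusted p = 0.0358) and passed in none of the fits without 1 array. Zbtb7b, the ThPOK gene that commits cells to the CD4 lineage, had a change of -1.07 with no overlap and did not pass. Without deltaP array 3 Gata3 (adjusted p = 0.0527), Ccr4 (0.0823) and Ms4a4b (0.051) were not called; Ccr4 (0.077) and Ms4a4b (0.0638) were also not called without deltaP array 2.

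The genes of double-positive cells before selection went the other way in sign but not past the test: 0 of 15 named members passed, 12 had changes above 0 and the median was 0.40. On the values as deposited 5 of the 15 rose, and on arrays centred on their medians 7 rose. Slc6a19, an amino acid transporter, had the widest change (1.02, 95% interval 0.16 to 1.89, adjusted p = 0.172): it read 7.06, 8.22 and 8.32 in the deltaP arrays, against 7.29, 6.16 and 7.08 in the peptide-injected OT-2 arrays. DeltaP array 1 lay among the peptide-injected OT-2 arrays, and the same was so for Tdrd5, a germ cell gene, with 7.69 in deltaP array 1 and 8.78 and 8.82 in the other two, against 8.05, 7.10 and 8.09 in the peptide-injected OT-2 arrays. Rag1 (0.40) and Rag2 (0.16), the recombinase genes, and Cd4 (0.55) did not pass.

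Receptors that guide migration held 4 of 15 named members that fell and 0 that rose, with a median of -0.28. On arrays centred on their medians 5 fell, 4 rose and the median was -0.001, and as deposited 5 fell and 1 rose. Gpr183, an oxysterol receptor that positions lymphocytes, read 7.10, 6.61 and 6.99 in the deltaP arrays, against 9.48, 9.37 and 9.75 in the peptide-injected OT-2 arrays. The gap exceeded 2 log2 units, the fall was 6.20-fold (change -2.63 ± 0.15, adjusted p = 0.00103) and the deltaP mean of 6.90 lay below the untreated OT-2 mean of 7.52. P2rx7, an ATP-gated channel, fell by 1.25 (SE 0.11, adjusted p = 0.00498), with 6.70, 6.38 and 6.51 in the deltaP arrays, against 7.93, 7.72 and 7.69 in the peptide-injected OT-2 arrays. Ptger4 and Ccr4, given above, were the others. Gpr183, P2rx7 and Ptger4 held in all 6 fits without 1 array.

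Cytokine receptors and their signalling genes had 4 of 15 named members that fell and 0 that rose, with a median of -0.30. On arrays centred on their medians 3 fell, 2 rose and the median was -0.06, as deposited 6 fell and 1 rose, and without deltaP array 2 or 3 only Il17rb passed. Il17rb, the receptor for IL-25, read 8.71, 8.47 and 8.56 in the deltaP arrays, against 9.62, 9.52 and 9.70 in the peptide-injected OT-2 arrays, and fell by 1.03 (SE 0.10, adjusted p = 0.00503) in every fit without 1 array. Jak3, the kinase of the common gamma chain, fell by 0.83 (SE 0.11, adjusted p = 0.0131), Tgfbr2 by 0.56 (SE 0.10, adjusted p = 0.0286) and Il27ra by 0.51 (SE 0.10, adjusted p = 0.0365). Jak3 missed the threshold without deltaP array 2 (adjusted p = 0.058) or 3 (0.0717), Tgfbr2 and Il27ra passed in 1 fit each, and Il27ra did not pass on all 3 scales. At Jak3 wild-type arrays 4 to 6 minus 1 to 3 differed by -0.42.

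In the cell cycle and DNA replication list 0 of 68 named members passed, 59 had changes above 0 and the median was 0.11, against 0.01 over all probe sets; on arrays centred on their medians, where all changes shift up, 15 rose. Ccnd2, a D-type cyclin, had the lowest value there (-1.44, 95% interval -2.37 to -0.52, adjusted p = 0.093) and 10.76 in peptide-injected OT-2 array 3, against 9.11 and 9.42 in the other two. Of 14 named genes of cholesterol and lipid synthesis, Scd2, a desaturase, rose by 0.63 (adjusted p = 0.0341). Hes1, a Notch target, fell by 0.91 (SE 0.17, adjusted p = 0.0338) as 1 of 4 named Notch genes, and is also on the list of double-negative markers. Per1, a clock gene that glucocorticoids induce, fell by 0.63 (adjusted p = 0.0338) as 1 of 4 named glucocorticoid-responsive genes and passed in none of the fits without 1 array. Of 7 stress genes 0 passed, Herpud1, an endoplasmic reticulum stress gene, having a change of -0.62 (adjusted p = 0.206). Scd2 passed in 1 of the fits without 1 array.

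**Figure D4:**
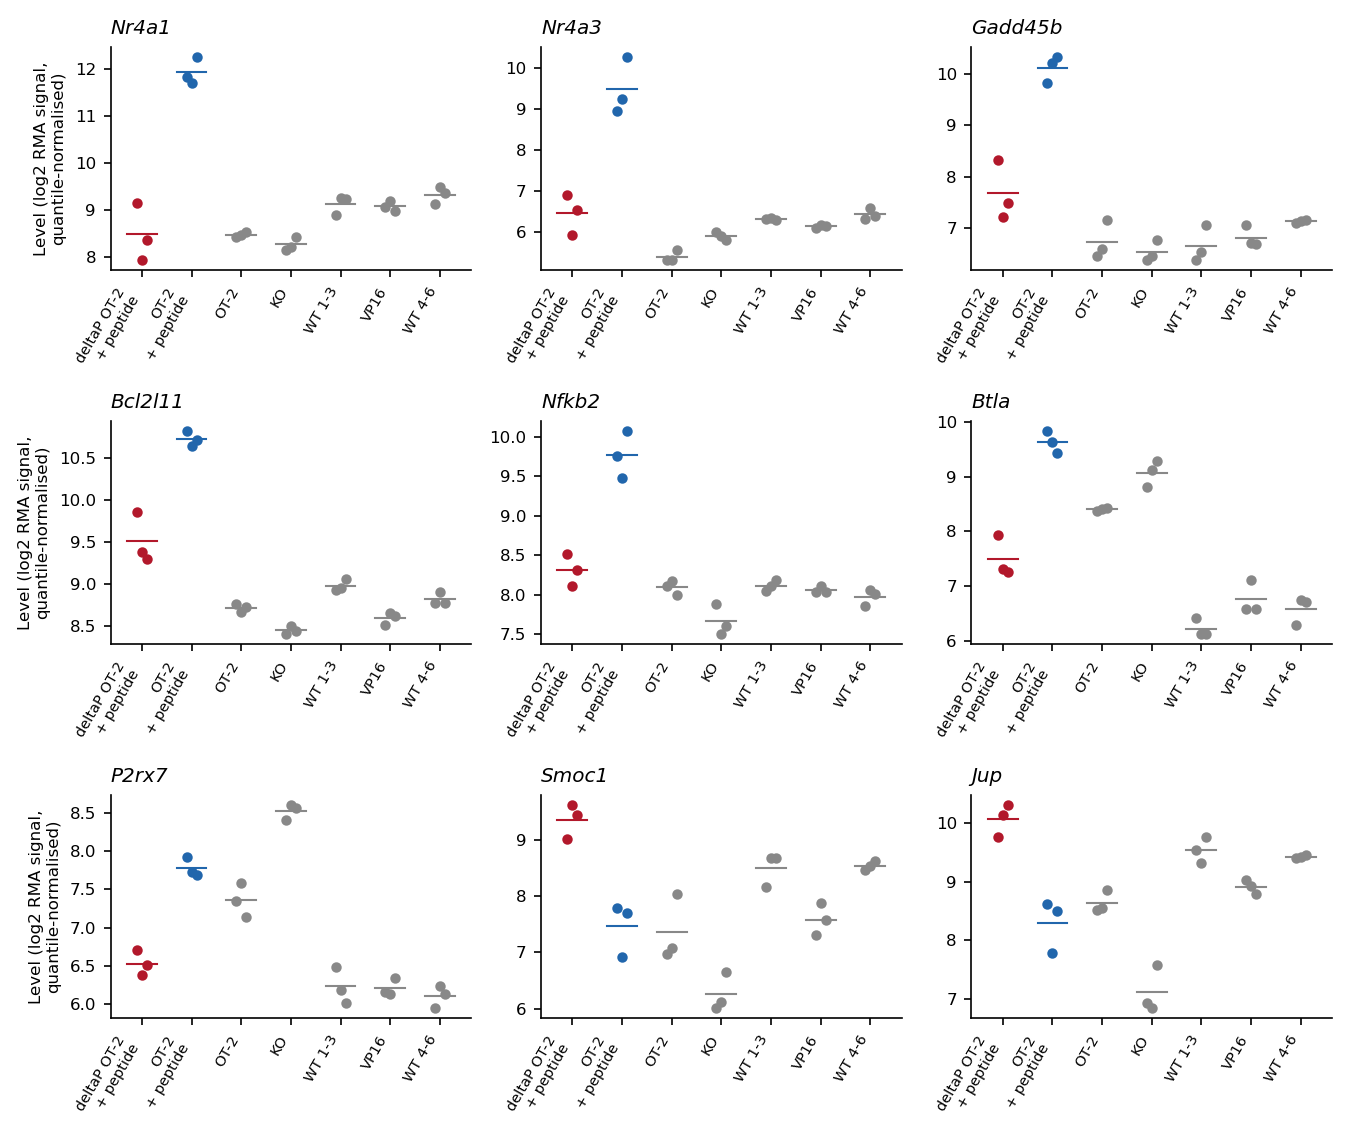
The plot of levels by group shows each array (points) and group means (lines) as log2 RMA signal after quantile normalization for 9 genes in 7 sets of arrays, with deltaP OT-2 plus peptide in red, OT-2 plus peptide in blue and the other groups in grey. For Nr4a1 the deltaP mean of 8.49 sits beside the untreated OT-2 mean of 8.48, for Bcl2l11 it lies between the peptide-injected and untreated OT-2 means, and Smoc1 and Jup are highest in deltaP and lowest in the knockout (KO).

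The largest rises were in genes of varied function. Slc28a2b, a concentrative nucleoside transporter, read 10.08, 11.09 and 10.21 in the deltaP arrays, against 8.28, 7.79 and 7.58 in the peptide-injected OT-2 arrays. It rose 5.98-fold (change 2.58 ± 0.27, adjusted p = 0.0067) with no overlap, and Slc28a2, its near-identical paralog, rose by 1.21 (SE 0.17, adjusted p = 0.0168); since the probes of one may bind transcripts of the other, the pair cannot be read apart with certainty. Smoc1, a secreted calcium-binding matrix protein, read 9.02, 9.62 and 9.45 in the deltaP arrays, against 7.79, 6.93 and 7.69 in the peptide-injected OT-2 arrays, a rise of 1.89 (SE 0.24, adjusted p = 0.0126). Jup, which codes for plakoglobin, a relative of beta-catenin, read 9.76, 10.13 and 10.30 in the deltaP arrays, against 8.62, 7.79 and 8.49 in the peptide-injected OT-2 arrays, a rise of 1.76 (SE 0.22, adjusted p = 0.0131). P3h4, a gene of collagen modification, read 8.40, 8.47 and 8.51 in the deltaP arrays, against 6.82, 6.51 and 6.80 in the peptide-injected OT-2 arrays. Its deltaP arrays lay within 0.11 of each other, and its rise of 1.75 (SE 0.10, adjusted p = 0.00103) was among the most precise.

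Rbm24, an RNA-binding protein of muscle splicing, rose by 1.70 (SE 0.17), Sema7a, a membrane-anchored semaphorin, by 1.28 (SE 0.12), and Podxl2, a sialomucin, by 0.96 (SE 0.09); their adjusted p-values ran from 0.00503 to 0.00558. Cacna1e, a voltage-gated calcium channel subunit, read 7.64, 8.59 and 8.58 in the deltaP arrays, against 7.22, 6.66 and 6.82 in the peptide-injected OT-2 arrays, and rose by 1.37 (SE 0.26, adjusted p = 0.0364), a call held in 1 of 6 fits. Phxr2 rose by 1.15 (SE 0.19), Insl5, a relaxin-family peptide, by 0.98 (SE 0.14), and Abca1, a cholesterol exporter, by 0.97 (SE 0.13). Slc28a2b, P3h4, Rbm24, Sema7a and Podxl2 passed in all 6 fits without 1 array. Smoc1 (0.0718), Jup (0.0717), Abca1 (0.0718), Slc28a2 (0.0549) and Insl5 (0.0838) missed the threshold without deltaP array 3 at these adjusted p-values, and without deltaP array 2 as well (0.058, 0.063, 0.063, 0.053 and 0.058), while their changes without array 3 were 1.85, 1.64, 0.90, 1.33 and 0.94.

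Among the largest falls outside the lists, Chl1, a cell adhesion molecule best known in neurons, read 4.62, 4.87 and 5.02 in the deltaP arrays, against 7.42, 6.84 and 6.85 in the peptide-injected OT-2 arrays. Its fall was 4.59-fold (change -2.20 ± 0.17, adjusted p = 0.00342), and the deltaP arrays lay below the median of all probe sets. Hivep3, a large zinc finger protein also known as Schnurri-3, fell by 2.20 (SE 0.19, adjusted p = 0.00498), with 6.24, 6.00 and 6.53 in the deltaP arrays, against 8.61, 8.05 and 8.71 in the peptide-injected OT-2 arrays. Gm4759 and Gm8995 fell by 2.05 (SE 0.21) and 1.66 (SE 0.18). Chl1, Hivep3 and Gm4759 held in all 6 fits, and Gm8995 missed without deltaP array 3 (adjusted p = 0.0521).

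The knockout of HDAC7 and the deltaP transgene change the same protein in different ways, and the 2 comparisons share 0 arrays, so the authors' deposited knockout table can be read in the deltaP arrays. Of the 199 probe sets that this table gives as higher in the knockout, 61 fell with deltaP (30.7%), 0 rose, and 171 had changes below 0 (median -0.41). Of the 206 that it gives as lower, 32 rose, 5 fell (Bcl2l11, Dusp5, Egr2, Nr4a1 and Nr4a3), and 159 had changes above 0 (median 0.28). Over all named probe sets 67 rose and 143 fell of 2111, with a median of 0.02. Across the 405 probe sets of the table the deltaP and knockout changes had r = -0.657, and across all 28923 probe sets r = -0.143, as a description over probe sets of the same arrays.

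Of the 98 probe sets of the table that passed with deltaP, 93 had opposite signs in the knockout. Btla, Chl1 and P2rx7, lower with deltaP by 2.13, 2.20 and 1.25, were higher in the knockout than in wild-type arrays 1 to 3 by 2.85, 2.52 and 2.29. Il17rb had 1.03 less with deltaP and 2.01 more in the knockout. Jup, Smoc1, Cacna1e and P3h4, which rose with deltaP, had knockout changes of -2.42, -2.25, -2.62 and -1.76. Nr4a1 and Egr2 stand apart, lower with deltaP (-3.44 and -0.87) and lower in the knockout (-0.86 and -1.18), where no peptide was given. Opposite directions were not particular to the knockout table. Of the 528 probe sets that the authors' deposited table gives as higher in untreated OT-2 than in wild type, 78 fell with deltaP (14.8%) and 0 rose. Of the 708 that it gives as lower, 36 rose and 4 fell. Together these are 5.65%, below the 9.95% called among named probe sets.

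Probe sets that the authors' deposited peptide table does not hold were counted apart. Of the 177 such knockout-raised probe sets 46 fell and 0 rose (median -0.38), and of the 171 such knockout-lowered ones 30 rose and 0 fell (median 0.33). In a limma fit of the knockout against wild-type arrays 1 to 3, 271 probe sets passed (0.937%), 48 of the 151 that rose there (0.522%) fell with deltaP and 0 rose, and 24 of the 120 that fell there (0.415%) rose with deltaP and 2 fell. In the fits without 1 array the 61 falls of the knockout-raised table became from 14 (without deltaP array 3) and 19 (without deltaP array 2) to 55, and the 32 rises of the knockout-lowered table from 6 (without either of these arrays) to 24. The medians stayed between -0.48 and -0.39 and between 0.24 and 0.31. As deposited, 100 of the knockout-raised probe sets fell and 67 of the knockout-lowered ones rose; on centred arrays the counts were 64 and 107.

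**Figure D5:**
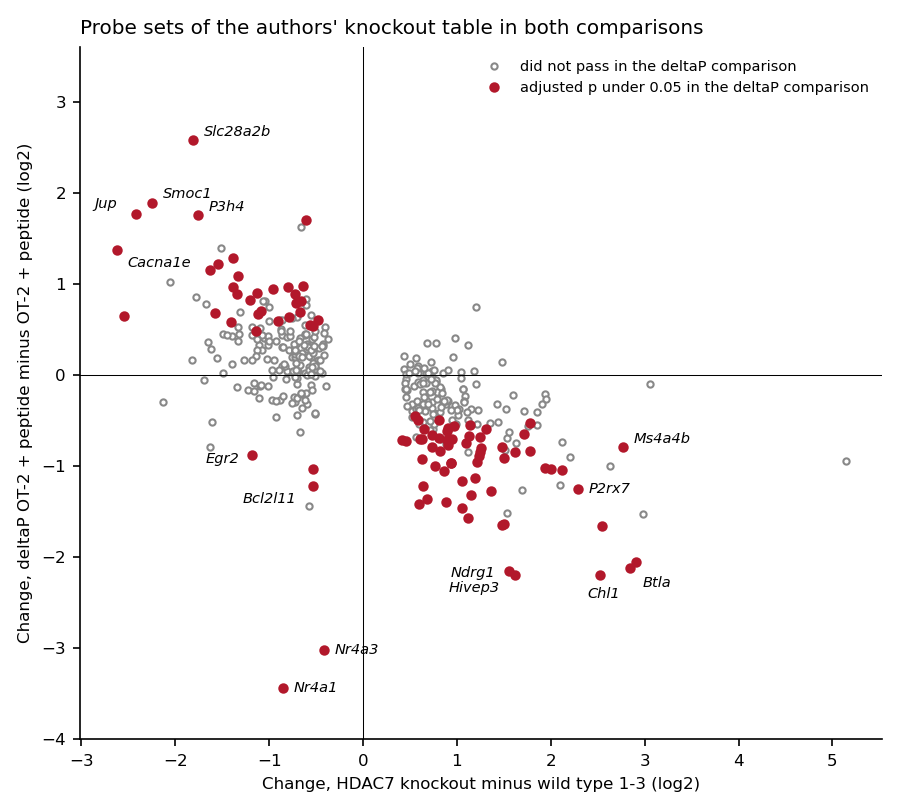
The plot of both HDAC7 comparisons sets the change with deltaP (y axis, deltaP minus peptide-injected OT-2, log2) against the change in the knockout (x axis, knockout minus wild-type arrays 1 to 3, log2) for the 405 probe sets of the authors' deposited knockout table. Filled red points passed in the deltaP comparison; 93 of these 98 lie in the upper left or lower right, and Nr4a1, Nr4a3, Egr2 and Bcl2l11 are labelled in the lower left.

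HDAC7-VP16 fuses HDAC7 to a viral activation domain and was compared by the authors with wild-type arrays 4 to 6, which are not among the 6 arrays here. Of the 256 probe sets that the authors' deposited VP16 table gives as higher, 32 fell with deltaP and 5 rose (Cass4, Papss2, Slc28a2b, Tmem71 and Tubb2b), with a median of -0.21. Of the 502 that it gives as lower, 13 rose and 4 fell (Cd69, Fmnl3, Gm3338 and Septin11), with a median of 0.11. Of these 3.39% were called, close to the 2.90% of all probe sets and below the 9.95% of named probe sets. The 69 probe sets that both tables give as higher held 20 that fell with deltaP and 0 that rose, and the 21 that both give as lower held 9 that rose and 0 that fell. Without deltaP array 3 the 32 falls of the VP16-raised table became 6 and the 13 rises of the VP16-lowered table became 4; without deltaP array 2 they became 8 and 3. As deposited the counts were 78 and 31, and on centred arrays 35 and 151, with 30 of the VP16-raised probe sets rising there.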

How the data were processed

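The 6 arrays compared are Affymetrix Mouse Gene 1.0 ST arrays of flow-sorted double-positive thymocytes. The deposited value table holds log2 RMA signals per probe set, made by the authors with RMA, and for the deltaP arrays in Affymetrix Expression Console, per the submitters' processing notes. Per the series design text, arrays were normalized in groups, and no version is stated there. The deposited tables of changed genes give the authors' fold ratio and a score for each probe set, and only their symbols, accessions and directions were used.

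Of 35556 rows, 6612 control rows were left out, 21 probe sets gave way to a brighter one of the same named gene, and 28923 were tested. Of the 2301 probe sets in the 4 tables, 2132 had 1 symbol, matched to RefSeq mostly by accession (1918), 160 had none and 9 several; 2111 of those tested carry a name. Because the groups lie in different normalization blocks, all 21 arrays were quantile-normalized together. The 3 and 3 arrays of a comparison went into lmFit and eBayes of limma 3.58.1 (R 4.3.3), two-sided, with Benjamini-Hochberg adjustment over all probe sets and a threshold of 0.05. The design text calls samples of the other groups biological replicates and does not mention the deltaP arrays, so their p-values measure the spread between these samples. The fit was tested on simulated data with no block difference, so that test says nothing of calls where block and group coincide. The number of arrays limits the precision.

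The alternatives were values as deposited, median centring, quantile normalization over the 6 arrays, probe sets above the median, an intensity trend with robust variance, 1 model over 21 arrays, the replicate number as a block, and leaving out each array. No label says that the numbers pair the arrays. Same-numbered arrays deviated from their group means together at r = -0.05, -0.10 and 0.17. With 3 arrays per group these values cannot settle whether the numbers mark pairs. Genes named are Hdac7 and Hdac5, the 12 largest rises and 12 largest falls that passed on all 3 scales without overlap and with the higher mean above the median, and up to 4 called members of each of 19 pathway lists (2 with the largest change where none passed); others were named after their values were seen. T cell receptor segments and unnamed probe sets were counted only. Some genes that the rule chose are not reported here. Members, lists and tests were chosen with earlier results of these data known. Promoter windows and their coordinates are from RefSeq, GRCm38.p6, and the plots came from matplotlib 3.10.9 under python 3.11.15.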

Additional observations from a re-analysis of the deposited data

How the results depend on the processing

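After quantile normalization over 21 arrays 838 probe sets passed, against 4349 on the values as deposited, 4652 on arrays centred on their medians, 317 among probe sets above the median only and 243 with the replicate number as a block; leaving out each array gave 60 to 498. The replicate block, which no label supports, also lost 16 of the calls of genes named by rule; deltaP array 1 correlated best with peptide-injected OT-2 array 2 (r = 0.25), not with its own number. The Hdac7 change was 0.033 on centred arrays and -0.26 after quantile normalization, and the cause was not tested. Between the wild-type sets 16469 passed on the values as deposited and 6742 among probe sets above the median only, and leaving out each array gave 6699 to 10591. The median change of the knockout-raised table was -0.267 on centred arrays and 0.484 was that of the knockout-lowered one. The VP16-raised table had -0.084 on centred arrays and -0.278 as deposited, leaving out each array gave -0.272 to -0.164, and the VP16-lowered table had 0.321 on centred arrays. In the lists 62 members passed (4 rose, 58 fell), against 103 on centred arrays (45 rose) and 95 as deposited (15 rose), and leaving out each array gave 11 to 47. Fewer arrays and fewer probe sets tested belong to the construction of the fits that leave some out; for the shifts between scales the median of all changes was -0.10 as deposited and 0.09 centred. Quantile normalization over the arrays compared, the trend fit and 1 model over 21 arrays gave 846, 916 and 766 calls, of which 805, 807 and 461 were among the 838.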

Other observations

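Genes outside the lists and the naming rule that passed in all 6 fits without 1 array are given here as examples chosen after their values were seen. Cd274, which codes for the inhibitory ligand PD-L1, fell by 1.49 with deltaP, and Itm2a, a membrane protein induced at positive selection, fell by 1.49. Etv5, an ETS factor, fell by 1.40, and Tsc22d1 by 1.09. Chsy1, an enzyme of chondroitin synthesis, fell by 1.62, Kbtbd11 by 1.65 and Herc3 by 0.83. Ern1, which codes for the endoplasmic reticulum stress sensor IRE1, fell by 0.92. Among genes that rose in the same way were Btbd11 (0.82) and Cass4 (0.85), an adhesion docking protein. Of the 838 probe sets that passed, 628 carry no name in the files, and of these 370 rose and 258 fell.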
